A study of Homo sapiens with 6 samples.

Results

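The genes described are 9 regulators and markers of epithelial-mesenchymal transition (EMT): CDH1, EPCAM, VIM, SNAI1, SNAI2, ZEB1, GRHL2, ESRP1 and ESRP2. They were chosen by name as textbook players in EMT, and their Ensembl identifiers were looked up in the expression tables. All 9 were found among 19437 genes, and 8 of them were among the 12755 genes with a mean of at least 0.5 FPKM over the libraries, the limit for testing. GRHL2 stayed below that limit. FPKM counts fragments per kilobase of transcript, scaled to the library, and puts genes of different length on 1 scale.

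EMT is the reversible passage of epithelial cells, which hold together through E-cadherin junctions, to a migratory mesenchymal state rich in vimentin. The zinc-finger factors of the SNAI and ZEB families bind E-box motifs and repress CDH1 and other epithelial genes, while GRHL2 and its relatives, and the splicing factors ESRP1 and ESRP2, maintain the epithelial program. ZEB1 and GRHL2 are known to repress each other, and in many carcinomas cells hold markers of both states.

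RNA-Seq was performed in SW480, a long-established line from a human colorectal tumor, in 3 groups of 2 libraries each: cells with the control hairpin shNT, cells with the hairpin shPcyt2-1 and cells with the hairpin shPcyt2-2. Both Pcyt2 hairpins are short RNAs against PCYT2, an enzyme of phosphatidylethanolamine synthesis. Per the study's methods, PCYT2 hairpins were delivered by lentivirus and infected cells were selected with puromycin, which is not spelled out for shNT. Each knockdown group rests on 1 hairpin in 1 line, and nothing in the labels says that the 2 libraries of a group came from separate cultures, so p-values measure only the spread between these libraries. FPKM summed to between 396467 and 402612 per library. The depth in reads is unknown, protein levels were not analysed here, and in bulk RNA fewer expressing cells and less RNA per cell cannot be told apart.

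Markers of colonic identity were present at very different levels, and several were low. VIL1, which encodes the brush border protein villin, was at 38.8 to 44.7 FPKM, and ASCL2, a factor of intestinal stem cells, was the most abundant of 9 colon identity genes. HNF4A at 31.9 and 36.1 FPKM and CDX2 at 15.5 and 16.9 FPKM were also abundant in shNT. CDX1 (1.64 in both), CDH17 (1.0 and 0.968), LGR5 (0.482 and 0.458) and GPA33 (0.154 and 0.202 FPKM) were low there, and KRT20, a keratin of mature colonocytes, reached at most 0.095 FPKM in any library. Of 12 markers of other cells, PTPRC of leukocytes was listed in no library and PECAM1 of endothelium did not exceed 0.0318 FPKM. These 12 markers summed to 25.0 and 21.7 FPKM in shNT, 24.3 and 28.7 in shPcyt2-1 and 21.0 and 24.5 in shPcyt2-2, and CD68, the most abundant of them, made up most of each sum. LUM, a matrix proteoglycan gene of fibroblasts, was the only 1 of the 3 tested markers of other cells to pass in any comparison, with a log2 fold change of 0.81 in shPcyt2-1 (adjusted p = 0.00189). Its part in the other results was not tested.

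PCYT2 itself (ENSG00000185813, chr17:81900965-81911464 of GRCh38) was at 11.6 and 13.8 FPKM in the shNT libraries, 7.11 and 7.36 in shPcyt2-1, and 6.71 and 6.18 in shPcyt2-2. All 4 knockdown libraries lay below both controls. The log2 fold change was -0.73 with shPcyt2-1 (adjusted p = 0.00202) and -0.88 with shPcyt2-2 (adjusted p = 0.00257), and the difference between hairpins of -0.15 (95% interval -0.37 to 0.08) did not pass (adjusted p = 0.31). ANAPC11 overlaps PCYT2 on the opposite strand at 89.3 to 108 FPKM, so reads of the pair may not be fully separated. All fold changes are on the log2(FPKM + 1) scale, which understates the change of low genes, and adjusted p-values come from limma with Benjamini-Hochberg adjustment over all 12755 tested genes.

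In control cells the 9 genes spanned a wide range of levels. EPCAM stood highest, at 269 ± 16.3 FPKM (SD, n = 2), followed by VIM at 85.1 ± 2.09 FPKM (SD, n = 2), so transcripts of an epithelial surface protein and of the principal mesenchymal filament were both abundant. ESRP1 was at 24.6 ± 0.335 FPKM (SD, n = 2). CDH1 and ESRP2 came next, at 14.9 ± 0.285 and 13.7 ± 1.28 FPKM (SD, n = 2 each), which is within their spread of each other. Among the repressors, SNAI1 led at 8.49 ± 0.329 FPKM (SD, n = 2). SNAI2 at 0.981 ± 0.136 FPKM and ZEB1 at 0.759 ± 0.107 FPKM (SD, n = 2 each) were far below it and stood apart by little more than their spread. GRHL2 was at the bottom, with 0.0235 and 0.0547 FPKM. The order was the same with shPcyt2-1, while with shPcyt2-2 ZEB1 (1.24 ± 0.0505 FPKM) and SNAI2 (1.06 ± 0.286 FPKM, SD, n = 2 each) overlapped.

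**Figure D1:**
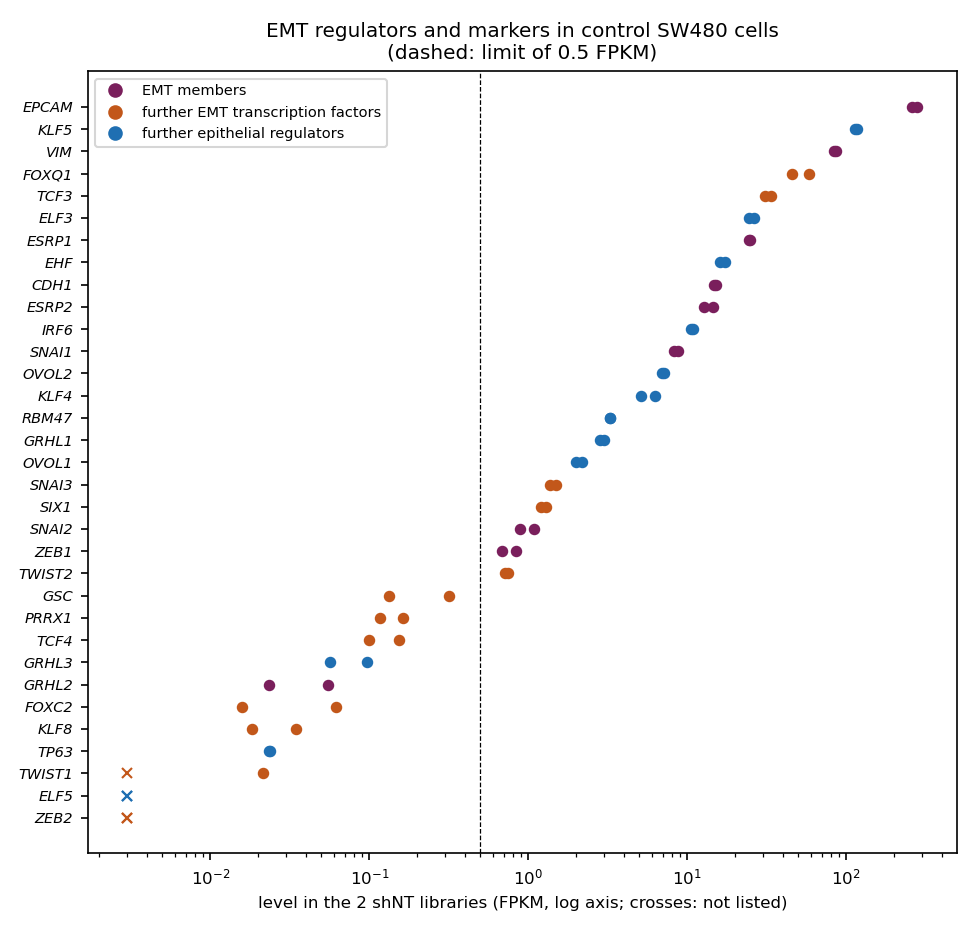
Levels in the 2 shNT libraries (FPKM, log axis) of the 9 EMT genes, 12 further EMT transcription factors and 12 further epithelial regulators, 1 row per gene and 1 point per library, with crosses for libraries in which a gene was not listed and a dashed line at 0.5 FPKM. EPCAM and VIM lie near the top, SNAI1 in the middle, SNAI2 and ZEB1 just above the line, and GRHL2 below it.

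With shPcyt2-1, ESRP1 was called higher and ESRP2 lower among the 8 tested genes, and with shPcyt2-2 none was called. Genome-wide, 26.7% of tested genes passed (adjusted p under 0.05) with shPcyt2-1 and 12.5% with shPcyt2-2, so 2 of 8 is near the background. For the count of 0 with shPcyt2-2, limma gave 2 of the 8 genes, CDH1 and ZEB1, at an unadjusted p under 0.05, where 31.1% of all tested genes stood (with shPcyt2-1, 5 of 8 genes against 40.9%, and between hairpins 4 of 8 against 40.3%). The median log2 fold change of the 8 genes was -0.01 with shPcyt2-1 and 0.10 with shPcyt2-2, against 0.07 and 0.04 over all tested genes. Between the hairpins, 3 of 8 genes differed (ZEB1 and ESRP2 higher and ESRP1 lower in shPcyt2-2), against 27.2% of all tested genes. The comparisons share libraries, and none of their values is independent support for another.

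When both hairpins were pooled against shNT, 0 of the 8 genes passed in limma, with 0 at an unadjusted p under 0.05 against 16.7% of all tested genes, and 0.00784% of all tested genes passed. This fit takes the difference between hairpins into its error, and PCYT2 itself did not pass in it (log2 -0.80, adjusted p = 0.115). The split of calls genome-wide depended on scaling. With shPcyt2-1, 2112 genes were higher and 1294 lower, against 1395 and 1795 after median-ratio scaling of the libraries. With shPcyt2-2, 984 were higher and 607 lower, against 761 and 906.

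**Figure D2:**
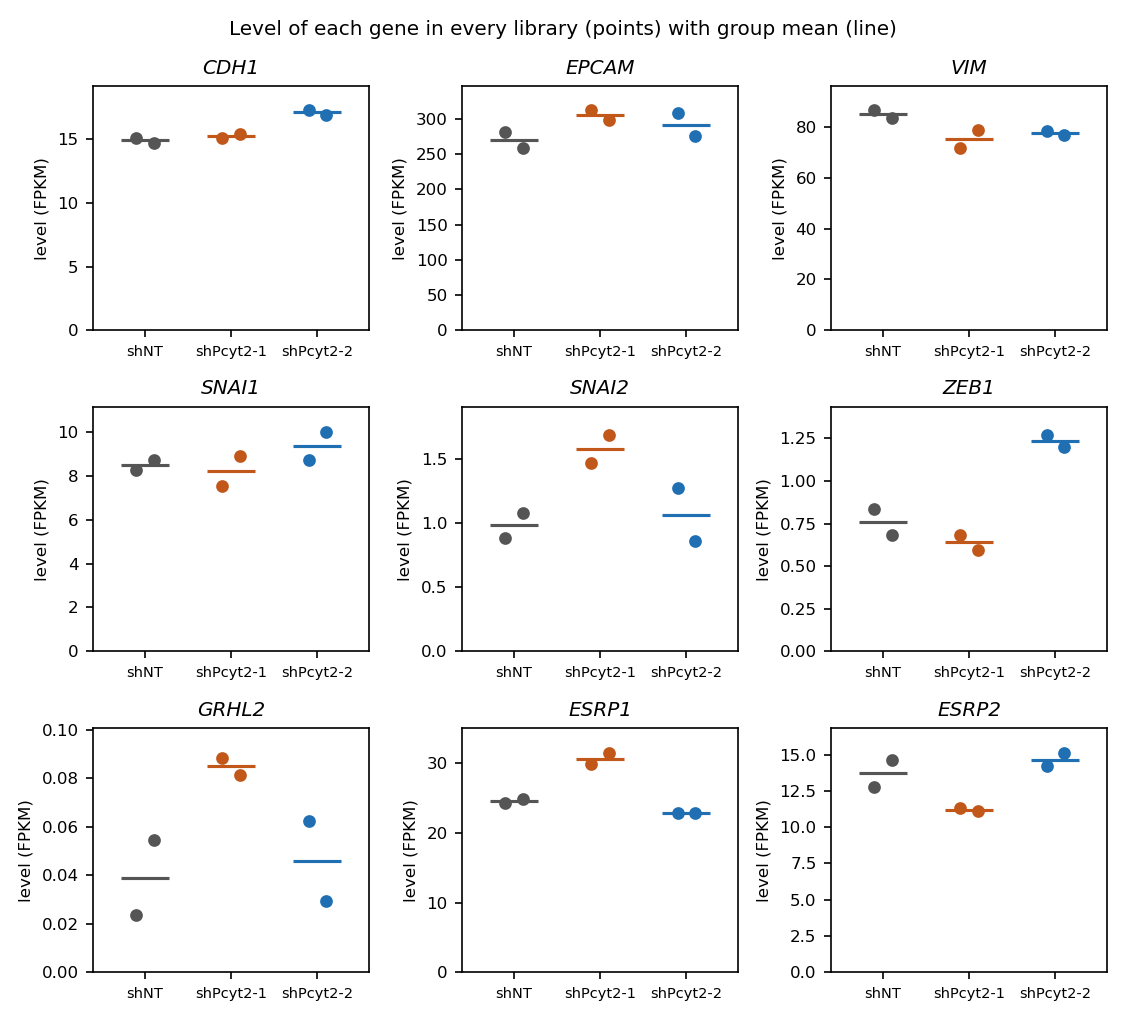
Level (FPKM, linear axes from 0) of each of the 9 EMT genes in every library, with points for libraries and lines for group means of 2 libraries. The shPcyt2-2 libraries of ZEB1 and the shPcyt2-1 libraries of ESRP1 stand above all other libraries of those genes, and GRHL2 stays under 0.1 FPKM throughout.

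CDH1 (ENSG00000039068, chr16:68737225-68835548), which encodes the junction protein E-cadherin, was at 15.1 and 14.7 FPKM in shNT, 15.1 and 15.4 in shPcyt2-1, and 17.3 and 16.9 in shPcyt2-2. The shPcyt2-2 libraries were the highest, and all 4 knockdown libraries lay above both controls, 1 of them by less than the rounding shows. The log2 fold change with shPcyt2-2 was 0.19 (95% interval 0.02 to 0.35, adjusted p = 0.12) and did not pass the threshold. With shPcyt2-1 it was 0.03 (-0.13 to 0.20, adjusted p = 0.763), and this sign turned under median-ratio scaling (-0.05). Under the deposited scaling the interval for shPcyt2-1 reaches no lower than -0.13, so a loss of CDH1 mRNA beyond that size lies outside it. No interval is given for median-ratio scaling, where the estimate was lower.

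EPCAM (ENSG00000119888, chr2:47345158-47387601) encodes an epithelial surface adhesion protein. Its libraries were at 281 and 258 FPKM in shNT, 312 and 298 in shPcyt2-1, and 308 and 275 in shPcyt2-2, so 3 of 4 knockdown libraries lay above both controls. A log2 fold change of 0.18 with shPcyt2-1 (95% interval 0.02 to 0.34) missed the threshold at an adjusted p of 0.0886, although without shNT replicate 1 the adjusted p was 0.0478. With shPcyt2-2 the value was 0.11 (-0.05 to 0.27, adjusted p = 0.309).

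VIM (ENSG00000026025, chr10:17228259-17237593), the gene of the intermediate filament protein vimentin, was at 86.5 and 83.6 FPKM in shNT, 71.6 and 78.8 in shPcyt2-1, and 78.4 and 76.9 in shPcyt2-2. All 4 knockdown libraries lay below both controls. The log2 fold changes of -0.18 with shPcyt2-1 (95% interval -0.33 to -0.03, adjusted p = 0.0751) and -0.13 with shPcyt2-2 (-0.28 to 0.02, adjusted p = 0.213) did not pass, apart from shPcyt2-1 after median-ratio scaling (adjusted p = 0.034). Its antisense neighbour VIM-AS1 did not exceed 0.4 FPKM. The ratio of VIM to CDH1 was 5.72 and 5.68 in shNT, 4.73 and 5.10 in shPcyt2-1, and 4.52 and 4.55 in shPcyt2-2, so each knockdown library had less VIM mRNA per CDH1 mRNA than either control library.

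SNAI1 (ENSG00000124216, chr20:49982999-49988886), the gene of the repressor Snail, was at 8.26 and 8.73 FPKM in shNT, 7.54 and 8.89 in shPcyt2-1, and 8.71 and 9.99 in shPcyt2-2. The 3 groups overlap. With log2 fold changes of -0.05 (95% interval -0.28 to 0.19, adjusted p = 0.769) and 0.12 (-0.11 to 0.36, adjusted p = 0.458), neither hairpin gave a detectable difference at this spread.

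SNAI2 (ENSG00000019549, chr8:48917604-48921740), which encodes the related repressor Slug, was at 0.885 and 1.08 FPKM in shNT, 1.47 and 1.69 in shPcyt2-1, and 1.27 and 0.863 in shPcyt2-2. Both shPcyt2-1 libraries stood above the other 4, while the shPcyt2-2 libraries straddled the controls. The log2 fold change with shPcyt2-1 was 0.38 (95% interval 0.09 to 0.67, adjusted p = 0.0548), just short of the threshold. It passed in 4 of 12 alternatives, among them those without shPcyt2-2 replicate 1 (adjusted p = 0.0391) and without shPcyt2-2 replicate 2 (adjusted p = 0.0375). With shPcyt2-2 it was 0.05 (-0.24 to 0.34, adjusted p = 0.806), and the difference between hairpins of -0.33 (-0.62 to -0.04) had an adjusted p of 0.0883, or 0.0482 without shPcyt2-2 replicate 1.

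ZEB1 (ENSG00000148516, chr10:31318495-31529814), a zinc-finger repressor of E-cadherin, had the largest range of group means of the 8 tested genes on the log2 scale. A window at the first of its RefSeq starts (GRCh38.p14, chr10:31318167-31318421, plus strand) is shown because it holds motifs of the factor families that EMT and the Hippo effector YAP1 act through. Capitals mark CAGGTG, an E-box letter string that SNAI and ZEB proteins bind, and CATTCC, the reverse complement of GGAATG, the core bound by the TEAD partners of YAP1.

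ZEB1 first start, 5′ to 3′: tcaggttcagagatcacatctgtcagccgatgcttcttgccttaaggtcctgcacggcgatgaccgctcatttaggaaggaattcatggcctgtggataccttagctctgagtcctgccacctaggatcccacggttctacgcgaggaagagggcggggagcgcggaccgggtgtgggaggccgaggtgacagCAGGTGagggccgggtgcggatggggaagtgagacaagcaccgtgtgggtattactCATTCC

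The E-box begins 57 bases before the start at 31318417, and CATTCC begins 1 base before it and runs over it. RefSeq gives 7 windows of 300 bases for ZEB1 (250 before each start and 50 after), of which 2 hold CAGGTG or CACCTG and 1 holds GGAATG or CATTCC. Over all 35116 such windows, 20.6% hold the E-box and 14.0% the TEAD core on either strand. The VIM window holds neither string, and a match of letters is a description and not evidence of binding. Of the 9 genes, 2 (VIM and ZEB1) were matched to the promoter table.

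ZEB1 was at 0.835 and 0.684 FPKM in shNT, 0.686 and 0.595 in shPcyt2-1, and 1.27 and 1.20 in shPcyt2-2. Both shPcyt2-2 libraries lay above the other 4, and shPcyt2-1 overlapped the controls. The hairpins differed by 0.45 on the log2 scale (95% interval 0.20 to 0.69, adjusted p = 0.0153), higher in shPcyt2-2. This call was lost without shPcyt2-1 replicate 1 (adjusted p = 0.0572), without shPcyt2-1 replicate 2 (adjusted p = 0.0934) and without shPcyt2-2 replicate 1 (adjusted p = 0.0571). Against shNT, the value was 0.35 with shPcyt2-2 (0.10 to 0.59, adjusted p = 0.0655) and -0.10 with shPcyt2-1 (-0.34 to 0.14, adjusted p = 0.517), and neither passed. ZEB1-AS1, an antisense gene that overlaps ZEB1, was more abundant than it, at 2.83 to 3.38 FPKM over the 6 libraries. The counting is not stated to use strand, so reads of the pair may not be fully separated.

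The genes most like ZEB1 over the 6 libraries, out of 5689 candidates, were CORO1C (Pearson r = 0.9975), SUCLG2 (0.9971), TBK1 (0.9946), WDR75 (0.9934) and CTSL (0.9926). With so many candidates and 6 points in 3 groups, such values describe only the shared pattern of group means. SUCLG2, for example, had means of 8.93 FPKM in shNT, 8.13 in shPcyt2-1 and 12.7 in shPcyt2-2.

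GRHL2 (ENSG00000083307, chr8:101492432-101669726), a grainyhead factor that sustains CDH1 transcription in epithelia, was at 0.0235 and 0.0547 FPKM in shNT, 0.0883 and 0.0814 in shPcyt2-1, and 0.0622 and 0.0295 in shPcyt2-2. It was listed in every library but was below the testing limit, so no fold change is given.

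ESRP1 (ENSG00000104413, chr8:94641074-94707466), a splicing factor that enforces epithelial exon choice, was at 24.3 and 24.8 FPKM in shNT, 29.8 and 31.4 in shPcyt2-1, and 22.9 and 22.9 in shPcyt2-2. No libraries of different groups overlapped. ESRP1 rose 1.23-fold with shPcyt2-1 (log2 0.30, standard error 0.07, adjusted p = 0.0131), a call lost without shPcyt2-1 replicate 1 (adjusted p = 0.0624) or without shPcyt2-1 replicate 2 (adjusted p = 0.107). With shPcyt2-2 the log2 fold change was -0.10 (95% interval -0.25 to 0.05, adjusted p = 0.347). The difference between hairpins, -0.40 (-0.56 to -0.25, adjusted p = 0.00319), passed in 12 of 12 alternatives.

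ESRP2 (ENSG00000103067, chr16:68229111-68238102), its paralog with a related role in splicing, was at 12.8 and 14.6 FPKM in shNT, 11.3 and 11.1 in shPcyt2-1, and 14.2 and 15.1 in shPcyt2-2. The shPcyt2-1 libraries were the lowest, and shPcyt2-2 overlapped shNT. ESRP2 fell to 0.828 of the control level with shPcyt2-1 (log2 -0.27, standard error 0.09, adjusted p = 0.0465), and this call held in 4 of 12 alternatives. Without shNT replicate 2 the log2 fold change was -0.18 (adjusted p = 0.212), and the call was also lost without shPcyt2-1 replicate 1 (adjusted p = 0.171), shPcyt2-1 replicate 2 (adjusted p = 0.178), shPcyt2-2 replicate 1 (adjusted p = 0.0596) or shPcyt2-2 replicate 2 (adjusted p = 0.0576). With shPcyt2-2 the value was 0.09 (-0.11 to 0.29, adjusted p = 0.52).

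Between hairpins, ESRP2 was 1.29-fold higher in shPcyt2-2 (log2 0.36, adjusted p = 0.0151). That difference did not pass without shPcyt2-1 replicate 1 (adjusted p = 0.0683), shPcyt2-1 replicate 2 (adjusted p = 0.0768) or shPcyt2-2 replicate 2 (adjusted p = 0.0841). NFATC3 overlaps ESRP2 on the opposite strand at 9.72 to 11.5 FPKM, so the 2 genes may share reads. The ratio of ESRP1 to ESRP2 was 1.90 and 1.69 in shNT, 2.64 and 2.83 in shPcyt2-1, and 1.61 and 1.52 in shPcyt2-2, so the paralogs lay on opposite sides of their control levels with shPcyt2-1.

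**Figure D3:**
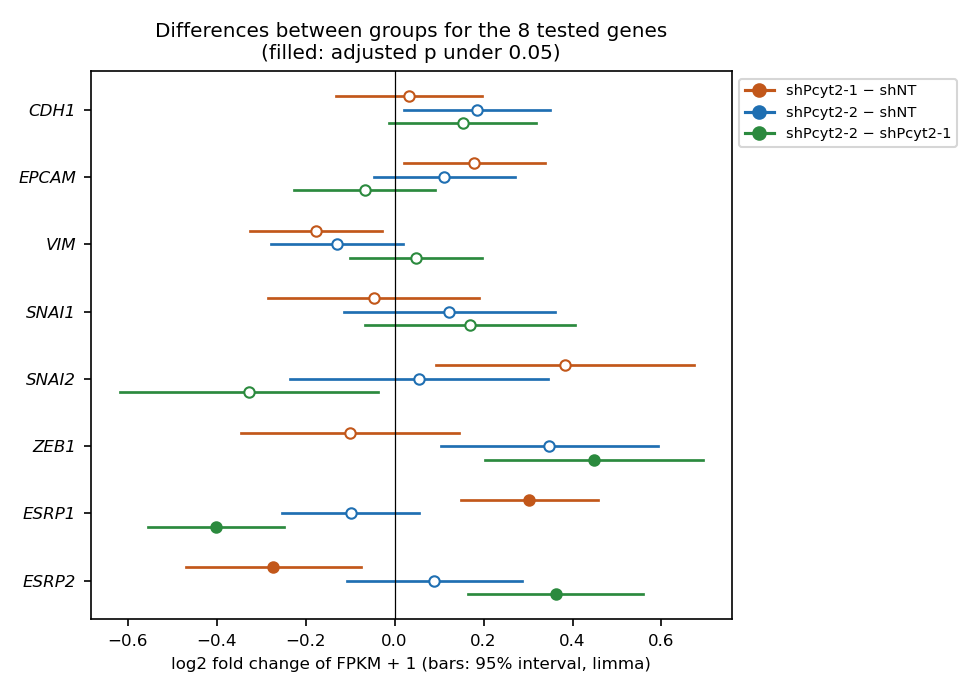
Log2 fold change of FPKM + 1 (horizontal axis) for the 8 tested EMT genes in 3 comparisons, with 95% intervals from limma and filled points at an adjusted p under 0.05. ESRP1 (0.30) and ESRP2 (-0.27) are filled for shPcyt2-1 against shNT, ZEB1, ESRP1 and ESRP2 for the difference between hairpins, and no gene is filled for shPcyt2-2 against shNT.

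Of 12 further EMT transcription factors, 5 were above the limit. With shPcyt2-1, 1 of the 5 passed (against 26.7% of all tested genes), and between hairpins 2 of the 5 did (against 27.2%). TWIST1 was listed in 1 library and ZEB2 in 2, at most at 0.0215 and 0.00819 FPKM. SNAI3, another Snail family gene, fell with shPcyt2-1 from 1.44 ± 0.0916 to 0.645 ± 0.0627 FPKM (SD, n = 2 each, log2 -0.57, adjusted p = 0.00659), a call lost without shPcyt2-1 replicate 1 (adjusted p = 0.0513). With shPcyt2-2, 0 of the 5 passed in limma (against 12.5%), with 2 at an unadjusted p under 0.05 (against 31.1%). The hairpins differed for SNAI3 and for the forkhead gene FOXQ1, both higher in shPcyt2-2, and the FOXQ1 call was lost without shPcyt2-1 replicate 2 or without either shPcyt2-2 library (adjusted p at most 0.128).

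Of 12 further epithelial regulators, 9 were tested, of which 2 passed with shPcyt2-1 (22.2%, against 26.7% of all tested genes) and 4 between hairpins (44.4%, against 27.2%). ELF3, an epithelial ETS factor, fell with shPcyt2-1 from 25.3 ± 1.48 to 16.4 ± 0.0831 FPKM (SD, n = 2 each, log2 -0.60, adjusted p = 0.0026). KLF4, a factor of epithelial differentiation, fell by 0.38 on the log2 scale (adjusted p = 0.0479), a call that held in 4 of 12 alternatives and was lost without shNT replicate 2, either shPcyt2-1 library or shPcyt2-2 replicate 1 (adjusted p at most 0.256). With shPcyt2-2 there were 0 calls in limma (against 12.5%) and 2 at an unadjusted p under 0.05 (against 31.1%). Between hairpins, ELF3, KLF4 and KLF5 were higher and OVOL2 lower in shPcyt2-2, against 4 higher and 0 lower after median-ratio scaling. The KLF5 and OVOL2 calls were lost when any of the 4 knockdown libraries was left out (adjusted p at most 0.129 and 0.259), and these genes and FOXQ1 were named after their values were seen.

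Of 26 mesenchymal markers beyond VIM, 18 were tested, and CDH2 (N-cadherin) and COL3A1 were listed in no library. With shPcyt2-1, 8 passed, 2 higher (16.6% of all tested genes were called higher) and 6 lower (10.1% of all tested genes). With shPcyt2-2, 9 passed, 8 higher (7.71%) and 1 lower (4.76%), or 7 higher and 0 lower after median-ratio scaling. The median log2 fold change of the 18 genes was -0.14 with shPcyt2-1 and 0.26 with shPcyt2-2, against 0.07 and 0.04 over all tested genes. Between hairpins 9 were higher (12.9% of all tested genes) and 2 lower (14.3%) in shPcyt2-2. Of the stromal markers among those of other cells, PDGFRB, named after its values were seen and under the testing limit, was at 0.364 and 0.507 FPKM in shNT, 0.225 and 0.309 in shPcyt2-1, and 0.795 and 0.739 in shPcyt2-2. DCN did not exceed 0.0586 FPKM in any library, and LUM was highest in shPcyt2-1. The part of these genes in the mesenchymal counts was not tested.

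COL6A1, a chain of collagen VI, fell with shPcyt2-1 from 24.6 ± 0.0971 to 11.2 ± 1.16 FPKM (SD, n = 2 each, log2 -1.08, adjusted p = 0.000282). With shPcyt2-2 COL6A1 rose to 34.0 ± 1.08 FPKM (SD, n = 2, log2 0.45, adjusted p = 0.0135), a call that held in 9 of 12 alternatives. LOXL2, a collagen cross-linking enzyme gene, fell with shPcyt2-1 from 6.27 ± 0.0521 to 2.51 ± 0.121 FPKM (SD, n = 2 each, adjusted p = 0.000382). It rose with shPcyt2-2 to 8.36 ± 0.388 FPKM (SD, n = 2, log2 0.36, adjusted p = 0.0355), a call that held in 3 of 12 alternatives. ENTPD4 overlaps LOXL2 on the same strand at 5.37 to 8.04 FPKM, so LOXL2 and ENTPD4 may share reads. TNC, a matrix glycoprotein gene, rose with shPcyt2-1 from 0.895 ± 0.101 to 2.56 ± 0.178 FPKM (SD, n = 2 each, adjusted p = 0.00125). FN1, the gene of fibronectin and the other gene called higher there, rose by 0.60 on the log2 scale (adjusted p = 0.00364) and was named after its values were seen.

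With shPcyt2-2, AXL, a receptor tyrosine kinase gene, rose from 5.21 ± 0.0461 to 9.56 ± 0.261 FPKM (SD, n = 2 each, log2 0.77, adjusted p = 0.00261), and ITGA5, the fibronectin receptor subunit, rose from 30.8 ± 0.0194 to 49.6 ± 3.12 FPKM (SD, n = 2 each, adjusted p = 0.00195). TAGLN, an actin-binding protein gene, and SPARC, a matrix protein gene, also rose, by 0.64 (adjusted p = 0.0217) and 0.59 (adjusted p = 0.022) on the log2 scale from under 1 FPKM. PCSK7 overlaps TAGLN on the opposite strand at 8.18 to 10.4 FPKM, so TAGLN and PCSK7 may share reads. The TAGLN call was lost without either shNT library or shPcyt2-2 replicate 2 (adjusted p at most 0.0947), and the SPARC call without shNT replicate 1 or either shPcyt2-2 library (adjusted p at most 0.128). S100A4, named after its values were seen, was the 1 gene called lower (log2 -0.20, adjusted p = 0.0331), and its call was lost without any 1 of the knockdown libraries or without shNT replicate 2 (adjusted p at most 0.172). AXL and ITGA5 fell with shPcyt2-1 (adjusted p = 0.0186 and 0.0411), calls that were lost without any 1 of the shNT or shPcyt2-1 libraries (adjusted p at most 0.129 and 0.213). For COL6A1, LOXL2, AXL, ITGA5 and SPARC the hairpins differed in 12 of 12 alternatives, each higher in shPcyt2-2. TNC and FN1 also differed in 12 of 12 alternatives, each lower in shPcyt2-2. Against shNT, the log2 fold changes of TNC and FN1 with shPcyt2-2 were 0.18 and -0.05 (limma adjusted p = 0.286 and 0.748). The shPcyt2-2 count was 2 with no expression limit, and 3 without shPcyt2-2 replicate 1, 5 without shPcyt2-2 replicate 2, 4 without shNT replicate 2 and 6 without shNT replicate 1.

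**Figure D4:**
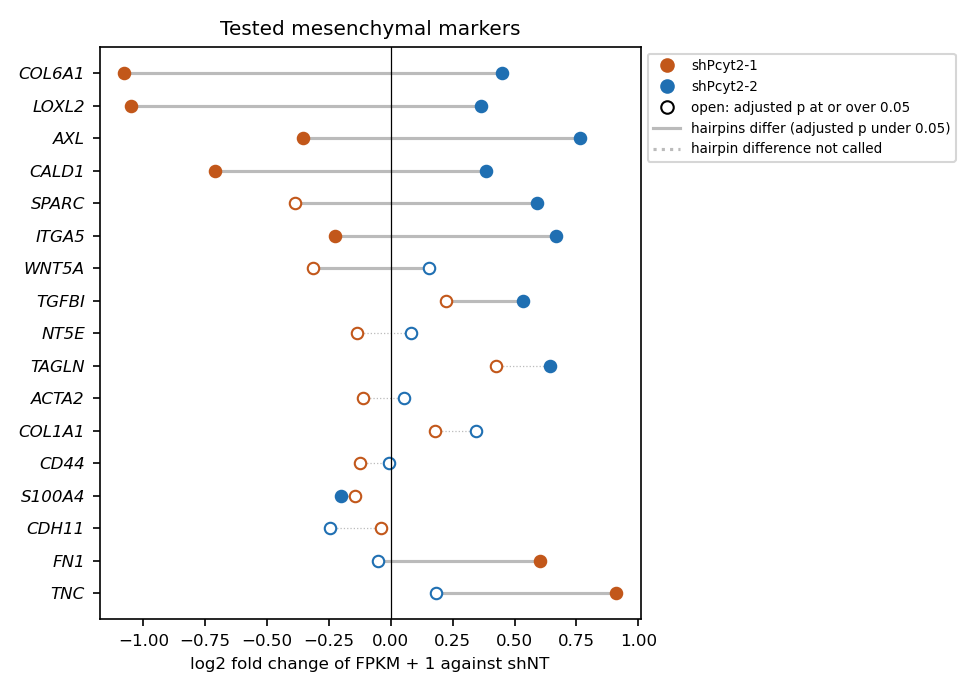
Log2 fold change of FPKM + 1 against shNT for all but 1 of the 18 tested mesenchymal markers, 1 row per gene, with orange points for shPcyt2-1 and blue points for shPcyt2-2, filled at an adjusted p under 0.05, and joined by a solid line where the hairpins differ. COL6A1 and LOXL2 lie on opposite sides of 0 with the 2 hairpins, and TNC and FN1 lie to the right with shPcyt2-1.

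Of 27 further epithelial surface and junction markers, 26 were tested, and 8 passed with shPcyt2-1 (2 higher and 6 lower) and 4 with shPcyt2-2 (1 higher and 3 lower). Of all tested genes, 16.6% were called higher and 10.1% lower with shPcyt2-1, and 7.71% and 4.76% with shPcyt2-2. Between hairpins 11 of the 26 passed (42.3%, against 27.2% of all tested genes), 7 higher (against 12.9%) and 4 lower (against 14.3%) in shPcyt2-2. Fewer passed between hairpins when any 1 of the knockdown libraries was left out. Their median log2 fold change was -0.01 with either hairpin, against 0.07 and 0.04 over all tested genes. With shPcyt2-1, CLDN3, a tight junction claudin, fell from 43.5 ± 1.17 to 26.4 ± 1.41 FPKM (SD, n = 2 each, log2 -0.70, adjusted p = 0.000562). The apical membrane protein gene MAL2 fell by 0.55 (adjusted p = 0.00394) and the tight junction gene CGN by 0.44 (adjusted p = 0.0109) on the log2 scale. The CGN call was lost without shNT replicate 2 or without shPcyt2-1 replicate 1 (adjusted p at most 0.0925). SPINT1 and MARVELD3, named after their values were seen, were the genes called higher, and both calls were lost without shPcyt2-1 replicate 1 (adjusted p = 0.0831 and 0.303). The MARVELD3 call was also lost without shNT replicate 1 (adjusted p = 0.0926), shNT replicate 2 (0.106) or shPcyt2-1 replicate 2 (0.0699), after median-ratio scaling (0.0703) and with no expression limit (0.0736). After median-ratio scaling 1 was higher and 6 lower. The count with shPcyt2-1 was 4 without shPcyt2-1 replicate 1.

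With shPcyt2-2, the simple epithelial keratins fell. KRT18 went from 3360 ± 173 to 2460 ± 88.8 FPKM (SD, n = 2 each, log2 -0.45, adjusted p = 0.00314), KRT19 fell by 0.44 (adjusted p = 0.00539) and KRT8 by 0.41 (adjusted p = 0.0048) on the log2 scale. With shPcyt2-1 these 3 keratins had log2 fold changes of 0.02, 0.06 and -0.05 that did not pass. MAL2 rose with shPcyt2-2 by 0.37 on the log2 scale (adjusted p = 0.033), opposite to its direction with shPcyt2-1, and this call was lost without shNT replicate 2 or either shPcyt2-2 library (adjusted p at most 0.174). The count with shPcyt2-2 was 0 with no expression limit and 0 without shPcyt2-2 replicate 1. KRT8 and KRT18 overlap each other on opposite strands in the annotation, so they may share reads.

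**Figure D5:**
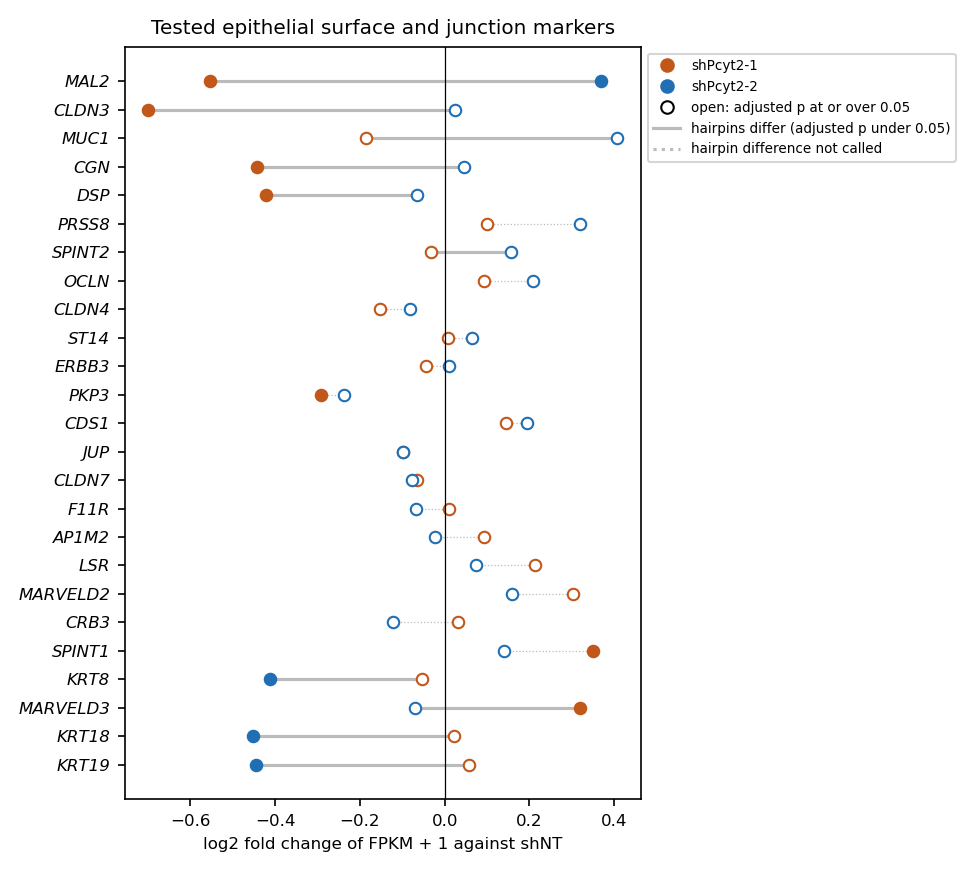
Log2 fold change of FPKM + 1 against shNT for all but 1 of the 26 tested epithelial surface and junction markers, 1 row per gene, with orange points for shPcyt2-1 and blue points for shPcyt2-2, filled at an adjusted p under 0.05, and joined by a solid line where the hairpins differ. CLDN3 and MAL2 lie to the left with shPcyt2-1, and KRT8, KRT18 and KRT19 lie to the left with shPcyt2-2.

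Of the catenins, the partners of E-cadherin inside the cell, CTNND1 (p120-catenin), which stabilizes E-cadherin at the cell surface, rose with both hairpins, from 31.0 ± 0.297 FPKM to 37.8 ± 0.434 with shPcyt2-1 (SD, n = 2 each, log2 0.28, adjusted p = 0.016) and to 40.4 ± 1.77 with shPcyt2-2 (SD, n = 2, log2 0.37, adjusted p = 0.0112). The shPcyt2-1 call was lost without either shPcyt2-1 library (adjusted p at most 0.122) and the shPcyt2-2 call without shPcyt2-2 replicate 1 or with no expression limit (adjusted p at most 0.0932). CTNNA1 (α-catenin) fell with shPcyt2-1 (log2 -0.30, adjusted p = 0.00654, or 0.0613 without shPcyt2-1 replicate 1) and stood 0.09 above shNT on that scale with shPcyt2-2 (adjusted p = 0.291). CTNNB1 (β-catenin) was at 286 ± 1.82, 326 ± 18.8 and 320 ± 24.6 FPKM in shNT, shPcyt2-1 and shPcyt2-2 (SD, n = 2 each). JUP (γ-catenin) was at 184 ± 4.64, 172 ± 11.9 and 172 ± 9.04 FPKM in the same groups (SD, n = 2 each). Neither passed in a single-hairpin comparison, apart from CTNNB1 with shPcyt2-1 when the replicate number was a block (limma adjusted p = 0.0363).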

How the data were processed

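RNA-Seq libraries of SW480 cells (2 each of shNT, shPcyt2-1 and shPcyt2-2) were analysed from 1 table per library. The authors deposited a normalized value per Ensembl gene, read as FPKM from the values, and TPM over part of the genes cannot be told apart from it. The tables list only genes above 0, so a gene absent from one was set to 0. The aligner and annotation are not given in the sources used here. The submitters' processing notes name GRCh38, GRCm38 and mm10 with no role, and the labels name several library kits without saying which libraries each made.

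Of 21539 identifiers, 115 repeated within a library were summed and 1143 groups of identifiers sharing the same values were each taken as 1 gene, for 19437 in all. The 13 protein-coding genes of the mitochondrial genome are absent from the tables. Gene names and coordinates were taken from GENCODE release 29 (GRCh38) and promoter sequences from RefSeq (GRCh38.p14). Values were tested as log2(FPKM + 1) with limma 3.58.1 in R 4.3.3 (mean-variance trend, 3 groups in 1 fit, or 2 groups for the pooled comparison), for genes with a mean of at least 0.5 FPKM. No read counts were recovered from these values, so depth gives no interval here. Genes named are the 9 EMT genes, PCYT2, up to 4 called genes with the largest change per list and single-hairpin comparison, all of lists under 5 genes, and the 5 most like the called EMT gene with the largest range (mean of at least 5 FPKM and enough spread to compare). Other genes were named after their values were seen, and 2 genes that the rule names are not reported here. The EMT genes, lists and tests were chosen with earlier results of these data known. Alternatives changed the pseudocount (0.1), dropped the expression limit, added the replicate number as a block, left out each library, or changed the scaling, the variance trend and the groups in the fit. Figures were drawn with matplotlib 3.10.9.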

Additional observations from a re-analysis of the deposited data

Results flagged for a closer look

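The effects of the 2 hairpins differed by test for 3 of the 8 tested EMT genes, against 27.2% of all tested genes. For ZEB1 the difference, shPcyt2-2 minus shPcyt2-1, was 0.448 on the log2 scale (adjusted p = 0.0153), with 0.35 for shPcyt2-2 and -0.10 for shPcyt2-1 against shNT. For ESRP1 it was -0.4022 (adjusted p = 0.00319), with -0.10 and 0.30, and for ESRP2 it was 0.3622 (adjusted p = 0.0151), with 0.09 and -0.27. In each gene both libraries of 1 hairpin lay beyond both libraries of the other. These genes were listed because the difference passed on the same libraries, so this separation adds no support. The share of all tested genes with such a separation was not computed. The labels do not tell whether the libraries of the hairpins were prepared together, so hairpin and culture cannot be told apart.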

How the results depend on the processing

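Of the 5 EMT calls in single comparisons, 4 were lost when 1 or another library was left out, and ESRP1 between hairpins was not. The number of the 8 EMT genes called with shPcyt2-1 was 2, 1 with no expression limit and 0 to 3 with 1 library left out. With shPcyt2-2 it was 0, and 1 (ZEB1, limma adjusted p = 0.048) with no variance trend. Between hairpins it was 3, and 1 to 3 with 1 library left out, where the 3 without shPcyt2-2 replicate 1 include SNAI2 and not ZEB1. PCYT2 passed with each hairpin in 12 of 12 alternatives. The labels do not say whether the replicate numbers pair the libraries, and the values here do not settle it. Replicate differences correlated between groups at 0.0027 (shNT and shPcyt2-1), 0.0628 (shNT and shPcyt2-2) and 0.193 (shPcyt2-1 and shPcyt2-2). With the replicate number as a block, 3, 0, 3 and 0 EMT genes were called with shPcyt2-1, with shPcyt2-2, between hairpins and pooled. Among the genes named, the block added EPCAM (adjusted p = 0.0311), CTNNB1 (adjusted p = 0.0363), S100A4 and TAGLN to the calls with shPcyt2-1, lost KLF4 there and changed no other call. Genome-wide, 3406 genes were called with shPcyt2-1 (1918 with no expression limit, 1166 to 3355 with 1 library left out), 1591 with shPcyt2-2 (138, and 125 to 1897), 3468 between hairpins (2502, and 1680 to 3789), and 1 when pooled (6 with no expression limit, 0 with the block). With the block, 3887 were called with shPcyt2-1, 2041 with shPcyt2-2 and 3877 between hairpins. With no variance trend, 1031 were called with shPcyt2-2.

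Among the EMT genes in all comparisons, and the other genes whose changes are described in the single-hairpin and between-hairpin comparisons, 31 values took the other sign under an alternative, none of them a value that had passed the threshold. Sign changes of other genes, and of those other genes when pooled, are not counted here. With 1 library left out, the log2 fold change with shPcyt2-1 ranged from -0.1528 to 0.05951 for SNAI1, -0.2747 to 0.06814 for FOXQ1, -0.02441 to 0.06937 for OVOL2, -0.02971 to 0.07528 for KRT18 and -0.01083 to 0.1053 for CDH17. With shPcyt2-2 it ranged from -0.08692 to 0.1964 for SNAI2, -0.1249 to 0.0194 for FN1, -0.03825 to 0.06997 for SNAI3, -0.004041 to 0.2054 for ELF3, -0.00339 to 0.0502 for CLDN3, -0.02634 to 0.1161 for CGN and -0.1128 to 0.001938 for CDX2. Between hairpins it ranged from -0.02122 to 0.116 for VIM, -0.1476 to 0.01245 for EPCAM, -0.1045 to 0.05209 for CTNNB1 and -0.07073 to 0.06943 for JUP, and pooled from -0.01995 to 0.1017 for SNAI1. Under median-ratio scaling the values with shPcyt2-1 were -0.0458 for CDH1, -0.05121 for OVOL2, -0.0613 for KRT18 and -0.02567 for KRT19. With shPcyt2-2 they were -0.01789 for SNAI3, -0.03139 for CLDN3 and -0.004701 for CGN, between hairpins 0.001745 for CTNNB1 and 0.02725 for JUP, and pooled -0.0244 for SNAI1. That scaling moved the median of all tested genes from 0.07 to -0.00284 with shPcyt2-1. The cause of these changes was not tested.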

Other observations

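Genes of colonic identity were described for context with the EMT genes. Of 9 genes 7 were tested. With shPcyt2-1, 3 of the 7 passed (42.9%, against 26.7% of all tested genes), and with shPcyt2-2 2 did (28.6%, against 12.5%). Between hairpins 3 of the 7 passed (42.9%, against 27.2%). With shPcyt2-1, CDX2, the homeobox factor of intestinal fate, fell from 16.2 ± 0.968 to 9.94 ± 0.0936 FPKM (SD, n = 2 each, log2 -0.65, adjusted p = 0.00136). HNF4A, a nuclear receptor of gut epithelium, fell with shPcyt2-1 from 34.0 ± 2.95 to 24.9 ± 0.175 FPKM (SD, n = 2 each, adjusted p = 0.005) and with shPcyt2-2 to 25.4 ± 0.0211 FPKM (SD, n = 2, adjusted p = 0.0143). The second of these calls was lost with no expression limit, without shNT replicate 2 and without either shPcyt2-2 library (adjusted p at most 0.0969). ASCL2 fell with shPcyt2-1 by 0.42 on the log2 scale (adjusted p = 0.021), a call lost without shNT replicate 2 and without either shPcyt2-1 library (adjusted p at most 0.101). CDH17, an intestinal cadherin, rose with shPcyt2-2 from 0.984 ± 0.0231 to 1.8 ± 0.121 FPKM (SD, n = 2 each, adjusted p = 0.021), a call lost without shNT replicate 2 or shPcyt2-2 replicate 1 (adjusted p at most 0.109). Between hairpins, CDX2 differed by 0.60 (adjusted p = 0.00111) and CDH17 by 0.45 (adjusted p = 0.0141) on the log2 scale, both higher in shPcyt2-2. CDX1, named after its values were seen, was also higher there, by 0.36 (limma adjusted p = 0.0296). The CDX1 call was lost with no expression limit or when any 1 of the knockdown libraries was left out. The CDH17 difference did not pass without shPcyt2-1 replicate 1 (adjusted p = 0.115) or shPcyt2-2 replicate 1 (adjusted p = 0.0583).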
